A study of Arabidopsis thaliana with 8 samples.

Results

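Seedlings of the mutant line e2e3 were compared with seedlings of the mutant line e1e2, both kept in ethylene. The comparison used 4 of the 8 libraries of the series, 2 from e2e3 and 2 from e1e2, chosen by their labels alone. e2e3 is Arabidopsis thaliana labelled e2-2 e3-2-2 #67, and e1e2 is the line labelled e1-2-2 e2-2 #17. All seedlings were 3 days old, had grown in the dark on MS medium with sucrose, and had been given 10 ppm ethylene; the hours of ethylene are not stated. The other 4 libraries came from the same lines in hydrocarbon-free air, and their values are set beside those in ethylene where a result calls for it. Each line is a single numbered line, both carry the allele e2-2, and no wild-type library was analysed here, so a difference between the lines does not show which of them departs from wild type.

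The pyruvate dehydrogenase complex (PDC) turns pyruvate into acetyl-CoA. Its E1 subunits decarboxylate pyruvate, its E2 subunit passes the acetyl group to coenzyme A, and its E3 subunit, a dihydrolipoyl dehydrogenase, reoxidizes the lipoamide arm of E2. Plant mitochondria hold one form of the complex and plastids another. Ethylene is sensed by receptors that, when the gas binds, let EIN2 signal to the nucleus, where the transcription factor EIN3 accumulates; the F-box proteins EBF1 and EBF2 remove EIN3 again. In dark-grown seedlings the hormone shortens the hypocotyl and root, thickens the hypocotyl and tightens the apical hook. The title of the series names nuclear PDC and EIN2-directed acetylation of histones.

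The e2e3 ethylene libraries held 14075249 and 14206221 counted read pairs, and the e1e2 ethylene libraries 14325334 and 14033113; over all 8 libraries the totals ran from 11522823 to 18601837. Replicates differed by more than counting noise, with a mean chi-square per gene of 1.67 in e2e3 and 1.42 in e1e2. Whether the replicates came from separate plantings is not given, so the p-values measure the spread between these samples, which may be technical. For most genes that spread was largely pooled over genes. Markers of each tissue of a seedling were present: all 9 root hair markers, all 11 root and endodermis markers, all 7 epidermis and vascular markers and all 11 seed storage genes passed the filter on low counts. In whole seedlings, fewer cells of a type and less RNA per cell cannot be told apart.

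Among the 8 genes for mitochondrial PDC subunits, 1 was higher in e2e3, 1 was lower, and 6 did not pass the test; over all 20193 genes tested, 6.56% passed at an adjusted p under 0.05. The gene that was higher is E1 ALPHA (AT1G59900, chromosome 1, 22051133 to 22053885), which encodes an E1 alpha subunit. E1 ALPHA had 216 and 214 CPM in e2e3, against 20.2 and 19.2 CPM in e1e2, where CPM is the count scaled by library size and TMM factor. It was thus about 10.9-fold higher in e2e3 (log2 3.45 ± 0.06, SE; adjusted p = 9.67e-133), and the libraries of the lines lay far apart. The gene that was lower is mtLPD2 (AT3G17240, chromosome 3, 5889663 to 5892332), which encodes an E3 subunit. mtLPD2 had 36.4 and 40.4 CPM in e2e3, against 149 and 150.3 CPM in e1e2 (log2 -1.96 ± 0.06; adjusted p = 8.77e-88). Low E1 ALPHA in e1e2 and low mtLPD2 in e2e3 match the E1 and E3 in the line names, although the labels do not tie an allele to a locus.

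The sister genes of these subunits showed no such gap. IAR4 (AT1G24180), the other E1 alpha gene, had 149 and 152 CPM in e2e3, against 146 and 141 CPM in e1e2 (log2 0.07 ± 0.04; adjusted p = 0.428). mtLPD1 (AT1G48030), the other E3 gene, had 154 and 154 CPM in e2e3, against 153 and 155 CPM in e1e2, values that overlapped (log2 0.00 ± 0.04). The E1 beta gene MAB1 (AT5G50850) differed by log2 0.07 ± 0.04. The E2 genes LTA3 (AT3G52200), AT3G13930 and AT1G54220 differed by 0.02 ± 0.05, 0.07 ± 0.04 and 0.05 ± 0.10, and none of these passed the test. Both lines carry e2-2, so their comparison does not check that label. None of the 7 plastid PDC genes was called, with log2 differences between -0.12 and 0.01. The gap in mtLPD2 was smaller in ethylene than in air, where it was -2.28 ± 0.06; the difference between the gaps was 0.32 ± 0.09 (adjusted p = 0.0195, and 0.0546 by DESeq2), while that of E1 ALPHA was 0.10 ± 0.10 (adjusted p = 0.724).

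**Figure D1:**
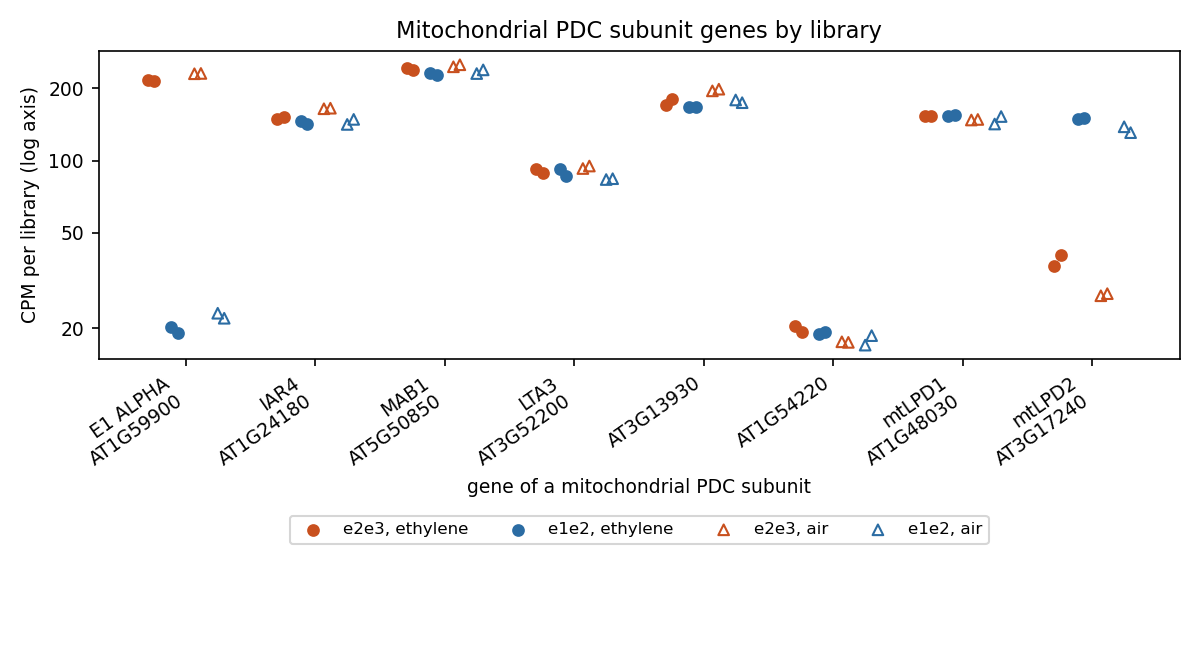
CPM (log axis) of 8 genes for mitochondrial PDC subunits in each library; filled circles are ethylene libraries, open triangles are air libraries, orange is e2e3 and blue is e1e2. E1 ALPHA lies at 216 and 214 CPM in e2e3 in ethylene and at 20.2 and 19.2 CPM in e1e2. mtLPD2 lies at 36.4 and 40.4 CPM in e2e3 in ethylene and at 149 and 150.3 CPM in e1e2. The other 6 genes lie at similar levels in both lines in ethylene. In air 4 of the 8 genes, E1 ALPHA among them, were called higher in e2e3, and 1, mtLPD2, was called lower.

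Across all genes the lines differed modestly in ethylene. In e2e3, 857 genes were higher and 468 lower, which is 4.24% and 2.32% of the genes tested, and the median size of a called difference was 0.26 on the log2 scale. Only 32 called genes were at least 2-fold higher and 41 at least 2-fold lower, or 0.158% and 0.203% of the genes tested. The libraries of the lines did not overlap for 9644 genes (47.8%), so a lack of overlap alone marks no gene. DESeq2 called 445 higher and 135 lower, and 574 of its 580 calls were among those of edgeR. With library sizes left unscaled the split turned to 606 higher and 798 lower, while the median gene shifted by only 0.03, to a log2 difference of -0.03. The total of 1325 called genes fell to 638 without e2e3 replicate 2, to 655 without e1e2 replicate 2 and to 711 without e1e2 replicate 1, all in ethylene. Of 141 genes followed in detail, 123 were called in ethylene, and 74 of these kept their call in all 8 fits that left out 1 library.

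In air the same lines differed at 2995 genes (14.8%), 1818 higher in e2e3 (9% of those tested) and 1177 lower (5.83%). Of the 1325 genes called in ethylene, 754 were called the same way in air, which is 56.9% of the ethylene calls and 25.2% of the air calls. Another 27 were called the opposite way, and 544 were not called in air. The difference between the line gaps was tested directly and passed for 566 genes (2.8% of those tested), 310 with the gap more positive in ethylene (1.54%) and 256 with it more negative (1.27%). Of the 544 genes not called in air, 67 passed that test. Across all genes the log2 differences in ethylene and in air, which come from separate libraries, correlated at r = 0.322 (Spearman rho 0.274), as a description over genes that are not independent replicates.

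**Figure D2:**
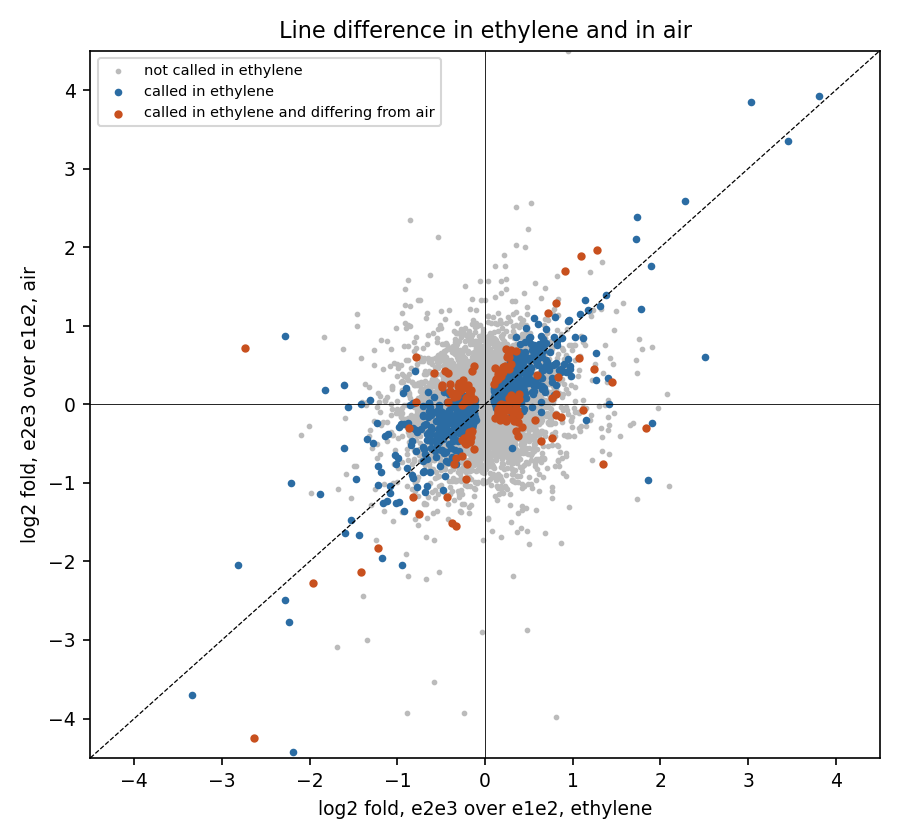
Log2 fold of e2e3 over e1e2 in ethylene (horizontal axis) and in air (vertical axis), 1 point a gene; grey genes were not called in ethylene, blue genes were, and orange genes were called in ethylene and also differed between ethylene and air. The 159 orange genes lie off the dashed line of equal differences; 5 of 20193 genes lie outside the axes.

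E1 ALPHA led the 15 largest increases. Next came AT3G54530 with 8.31 and 8.56 CPM in e2e3, against 1.89 and 1.58 CPM in e1e2 and AT3G54520 with 17.603 and 18.3 CPM in e2e3, against 5.99 and 4.81 CPM in e1e2, neighbouring genes on chromosome 3 (20185966 to 20187637 and 20183517 to 20185202) annotated only as uncharacterized proteins. AT4G33070 (PDC1), a pyruvate decarboxylase of fermentation that makes acetaldehyde from pyruvate and shares its abbreviation with the complex, had 57.6 and 60.1 CPM in e2e3, against 24.4 and 24.05 CPM in e1e2 (log2 1.28 ± 0.08; adjusted p = 2.01e-38). The methyltransferase gene PXMT1 (AT1G66700) had 51.8 and 52.1 CPM in e2e3, against 24.99 and 23.7 CPM in e1e2, and the glutathione S-transferase gene GSTF7 (AT1G02920) 34.1 and 40.5 CPM in e2e3, against 16.8 and 18.3 CPM in e1e2. GH3.3 (AT2G23170), whose product conjugates auxin to amino acids, had 17.5 and 18.3 CPM in e2e3, against 8.96 and 8.66 CPM in e1e2 (log2 1.02 ± 0.12). LSU1 (AT3G49580), a gene known for its induction by low sulfur, had 9.15 and 10.997 CPM in e2e3, against 5.46 and 4.81 CPM in e1e2.

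The other increases of this set, between 0.96 and 1.37 on the log2 scale, were in AT2G19970 of the CAP family (1.37 ± 0.22), MLP31 (AT1G70840, 1.24 ± 0.17), the acyl-lipid thioesterase gene AT1G35290 (1.17 ± 0.23), the noncoding RNA AT3G05945 (1.14 ± 0.11), AT1G14950 of the polyketide cyclase family (1.08 ± 0.10), AT4G31330 (0.97 ± 0.20) and AT5G04120 of the phosphoglycerate mutase family (0.96 ± 0.09). Of the 15, 14 were called higher in air as well; AT4G31330, which was also not called without e2e3 replicate 2, was the exception. GSTF7 and its neighbour GSTF6 are nearly identical, and reads that map to more than 1 place were not counted, so the values of both are uncertain.

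The 15 largest decreases included FRO2 and IRT1, both in the iron list, and others known for a role with iron that no list held. FRO2 (AT1G01580), the root ferric reductase, had 7.54 and 7.24 CPM in e2e3, against 19.9 and 19.5 CPM in e1e2 (log2 -1.41 ± 0.13; adjusted p = 5.70e-19). IRT1 (AT4G19690, chromosome 4, 10707344 to 10709015), the transporter that brings ferrous iron into the root, had 28.5 and 27.98 CPM in e2e3, against 64.3 and 67.5 CPM in e1e2 (log2 -1.22 ± 0.07; adjusted p = 4.18e-38). For both genes the e2e3 libraries lay close together and far below the e1e2 libraries. CYP82C4 (AT4G31940), a cytochrome P450 that makes an iron-mobilizing coumarin, had 0.978 and 1.88 CPM in e2e3, against 7.48 and 6.53 CPM in e1e2. AT3G25190, listed as vacuolar iron transporter-like 5, had 4.82 and 5.15 CPM in e2e3, against 14.1 and 16.1 CPM in e1e2, and its relative AT1G21140 had 2.31 and 2.23 CPM in e2e3, against 6.06 and 4.26 CPM in e1e2; the call on AT1G21140 did not pass without e1e2 replicate 1.

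SKOR (AT3G02850), which releases potassium into the xylem, had 7.26 and 5.36 CPM in e2e3, against 14.7 and 14.6 CPM in e1e2, and SLAH1 (AT1G62280), an anion channel homologue, had 7.33 and 7.24 CPM in e2e3, against 13.5 and 14.2 CPM in e1e2. Of these 15 genes AT1G64795 had the largest decrease, with 1.82 and 0.905 CPM in e2e3, against 8.96 and 7.97 CPM in e1e2, but 70.6% of its exon bases lie opposite AT1G64790 and the counting had no strand setting, so its value is uncertain. The rest of this set were mtLPD2, the noncoding RNAs AT4G04223 (-1.53 ± 0.13) and AT1G67105 (-1.08 ± 0.15), the pectin lyase-like gene AT1G65570 (-1.47 ± 0.19), the glycine-rich GRP9 (AT2G05440, -1.17 ± 0.14), the lectin gene AT5G28520 (-1.03 ± 0.16) and AT5G43520 (-0.98 ± 0.21). All but AT5G43520 were also called lower in air. Over all 73 genes called with at least a 2-fold difference in ethylene, with no minimum level, 43 (58.9%) were called the same way in air. DESeq2 gave no adjusted p for 13 of these 30 genes.

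**Figure D3:**
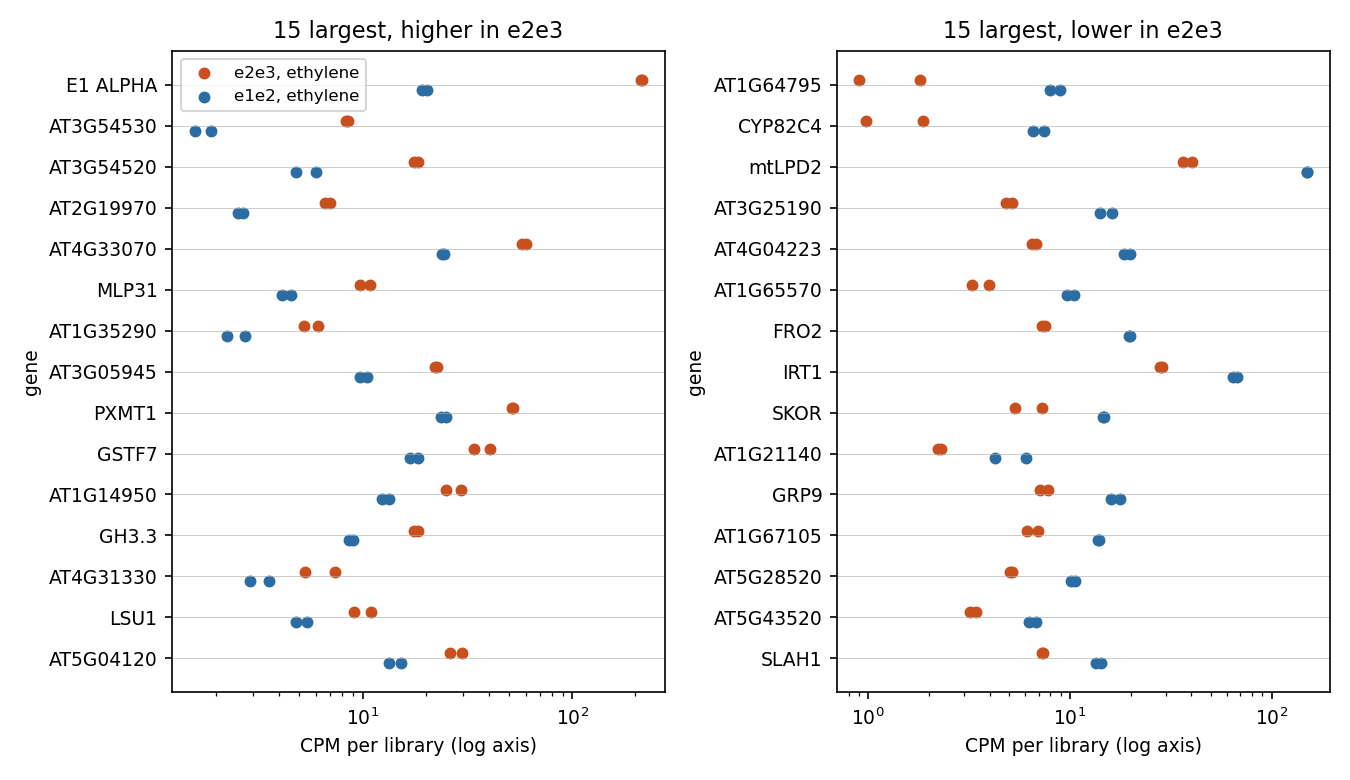
CPM (log axis) in each ethylene library of the 15 genes with the largest differences in each direction, orange for e2e3 and blue for e1e2, in order of size. The libraries of the lines do not overlap for any of them, which the rule for choosing them required.

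Of the 11 tested genes in a list for iron uptake and storage, 3 were lower in e2e3 and none was higher. That is 27.3% called, against 6.56% over all genes. The median log2 difference was -0.26, against -0.003 over all genes. Besides FRO2 and IRT1 the third was bHLH39 (AT3G56980), a transcription factor that switches on uptake genes under iron deficiency, with 8.45 and 8.98 CPM in e2e3, against 12.1 and 11.3 CPM in e1e2 (log2 -0.43 ± 0.14; adjusted p = 0.0481). The call on bHLH39 was lost in 6 of the 8 fits that left out 1 library, so the list then held 2 calls. Its partner genes FRU, bHLH38 and BHLH101 differed by -0.28 ± 0.12, -0.25 ± 0.29 and -0.40 ± 0.28 and did not pass. The ferritin genes FER1, FER3 and FER4, whose proteins store iron, differed by 0.07 ± 0.04, 0.05 ± 0.06 and 0.01 ± 0.06 and did not pass either. The gap in IRT1 and FRO2 was larger in air, at -1.82 ± 0.09 and -2.13 ± 0.16; the difference from air was 0.60 ± 0.12 for IRT1 (adjusted p = 0.000377) and 0.72 ± 0.22 for FRO2 (adjusted p = 0.0466).

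Some genes of the photosynthetic apparatus were slightly lower in e2e3. Of 45 tested nuclear genes for light-harvesting proteins and photosystem subunits, 10 were lower and none was higher. These are 22.2% of the list, against 6.56% called over all genes, and the median log2 difference was -0.05. LHB1B1 (AT2G34430) had 26.8 and 32.5 CPM in e2e3, against 53.4 and 51.4 CPM in e1e2 (log2 -0.82 ± 0.07; adjusted p = 2.05e-20), and CAB2 (AT1G29920) had 98.98 and 103 CPM in e2e3, against 132 and 121.7 CPM in e1e2; both encode LHCB1 proteins of the photosystem II antenna. CAB1 (AT1G29930) and CAB3 (AT1G29910), of the same family, were lower too, with differences of -0.17 ± 0.03 and -0.23 ± 0.04. LHCB1 copies are nearly identical and reads shared between copies were not counted, so their values are uncertain: LHB1B2 had no counts in any of the 4 ethylene libraries. Antenna genes without such copies were lower too. LHCA1 (AT3G54890), of the photosystem I antenna, had 299 and 317 CPM in e2e3, against 359.7 and 363 CPM in e1e2, and LHCB6 (AT1G15820), a minor photosystem II antenna protein, had 388 and 420.4 CPM in e2e3, against 472 and 465 CPM in e1e2.

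LHCB3 (AT5G54270), LHCB5 (AT4G10340), LHCA4 (AT3G47470) and PSBQ-2 (AT4G05180), which stabilizes oxygen evolution, differed by -0.21 ± 0.04, -0.18 ± 0.03, -0.16 ± 0.03 and -0.19 ± 0.04. LHCB6 shares 20.4% of its exon bases with antisense genes, and LHCB3 also overlaps an antisense gene. LHCA4 and PSBQ-2 were not called without e2e3 replicate 1; without that library 8 genes of the list were lower and 1 was higher. With library sizes left unscaled, 16 were lower. The 4 Rubisco small subunit genes, also a family of near-identical copies, gave no call, with log2 differences from -0.06 to 0.08.

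In air the same list stood further apart: 43 of the 45 genes were lower in e2e3 and the median log2 difference was -0.30. The gap was smaller in ethylene for 44 of the 45 genes, and the test of the difference passed for 36, all towards zero or above, by 0.51 at most. The summed level of the list was 15675 and 16565 CPM in e2e3 and 17254 and 17162 CPM in e1e2 in ethylene, and in air it was 14590 to 15198 CPM in e2e3 and 18746 to 19392 CPM in e1e2. These sums do not overlap between the lines in either condition, and they lie closer together in ethylene. The difference from air was 0.30 ± 0.05 for CAB1 (adjusted p = 1.80e-07), 0.25 ± 0.05 for LHCA1 (adjusted p = 0.00064) and 0.26 ± 0.05 for LHCA4 (adjusted p = 8.42e-05).

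**Figure D4:**
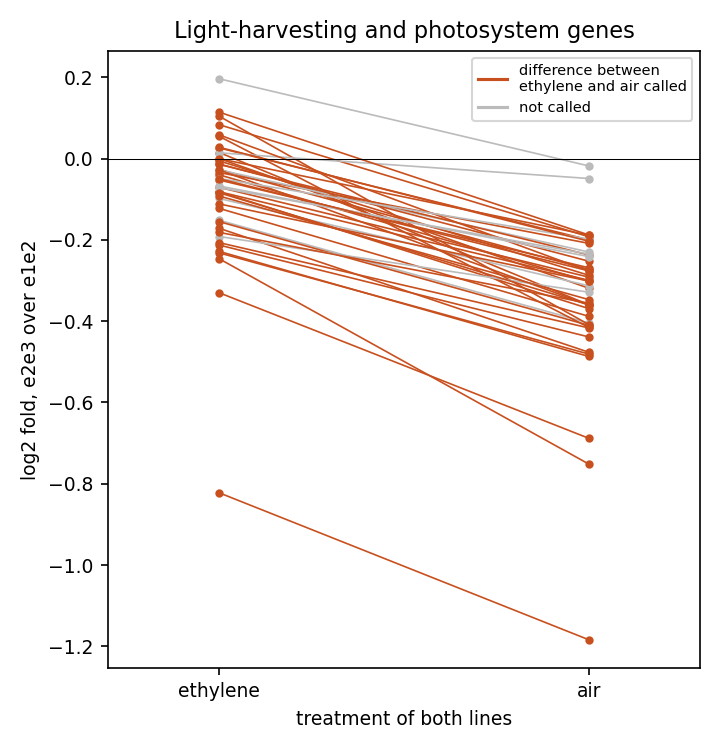
Log2 fold of e2e3 over e1e2 for 45 light-harvesting and photosystem genes, with each gene's value in ethylene joined to its value in air; orange lines are the 36 genes whose difference between ethylene and air passed the test. All lines run downwards from ethylene to air, and the lowest is LHB1B1, at -0.82 in ethylene and -1.18 in air.

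The promoters of 4 of the 10 lower genes held GATAAG, the I-box sequence that GATA factors are known to read in light-regulated genes, and these 4 were chosen for that match. Each runs from 250 bases before the annotated gene start through the first 50 bases of the gene, 5′ to 3′ on the gene's strand, in the TAIR10.1 RefSeq genome; capitals mark GATAAG (or its complement CTTATC) and the G-box CACGTG, which do not overlap each other here.
LHCA1 (chr3:20341127-20341426, minus strand): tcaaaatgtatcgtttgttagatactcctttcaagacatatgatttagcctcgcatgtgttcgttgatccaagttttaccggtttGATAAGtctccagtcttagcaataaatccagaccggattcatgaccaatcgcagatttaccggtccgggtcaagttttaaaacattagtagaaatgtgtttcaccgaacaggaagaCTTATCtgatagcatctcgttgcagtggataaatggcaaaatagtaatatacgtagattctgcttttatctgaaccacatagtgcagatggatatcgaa
LHCA4 (chr3:17494984-17495283, minus strand): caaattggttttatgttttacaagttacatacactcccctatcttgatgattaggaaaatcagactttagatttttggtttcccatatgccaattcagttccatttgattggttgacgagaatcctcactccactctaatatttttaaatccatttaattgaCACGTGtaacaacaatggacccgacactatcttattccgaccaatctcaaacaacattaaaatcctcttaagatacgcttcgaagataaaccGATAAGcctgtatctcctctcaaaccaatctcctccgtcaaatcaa
LHCB6 (chr1:5447831-5448130, minus strand): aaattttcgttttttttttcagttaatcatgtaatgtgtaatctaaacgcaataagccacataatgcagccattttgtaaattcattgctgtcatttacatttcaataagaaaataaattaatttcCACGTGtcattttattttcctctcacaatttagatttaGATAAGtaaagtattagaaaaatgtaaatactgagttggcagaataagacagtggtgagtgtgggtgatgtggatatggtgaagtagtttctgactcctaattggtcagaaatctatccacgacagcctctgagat
PSBQ-2 (chr4:2673194-2673493, minus strand): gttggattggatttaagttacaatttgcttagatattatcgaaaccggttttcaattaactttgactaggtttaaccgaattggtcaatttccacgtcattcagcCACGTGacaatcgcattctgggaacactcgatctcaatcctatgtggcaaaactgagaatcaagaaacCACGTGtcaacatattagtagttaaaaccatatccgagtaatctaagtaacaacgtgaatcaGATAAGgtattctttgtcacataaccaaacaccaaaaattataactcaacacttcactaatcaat
LHCA1 holds GATAAG 1 time on each strand, LHCA4 and LHCB6 hold each motif 1 time, and PSBQ-2 holds 1 GATAAG and 2 CACGTG. The GATAAG of LHCA4 lies after the annotated start, within the first 50 bases of the gene. Searched on both strands, GATAAG was found in 18 of the 45 promoters of the list (40.0%) and in 14.7% of the promoters of all genes tested, and CACGTG in 17 (37.8%) and 9.0%. Of the 10 genes called lower, 4 held GATAAG (40.0%) and 3 held CACGTG (30.0%), so the called genes held neither motif more often than the whole list. These are matches of letters, not sites shown to be bound.

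Genes of chlorophyll synthesis were also among the decreases. Of 9 tested genes, 5 were lower in e2e3 and none was higher, or 55.6% called, against 6.56% over all genes. The median log2 difference was -0.14, and 2 of the 9 genes had a positive difference. The summed level of the list overlapped between the lines in ethylene. It was 5800.5 and 5961.0 CPM in e2e3, against 5951.7 and 5949.7 CPM in e1e2. GUN5 (AT5G13630), the large subunit of magnesium chelatase, had 478 and 476 CPM in e2e3, against 544 and 543 CPM in e1e2 (log2 -0.19 ± 0.04; adjusted p = 2.01e-05). The chelatase genes CHLI1 (AT4G18480) and ALB1 (AT1G08520), the chlorophyll b gene CH1 (AT1G44446) and HEMA1 (AT1G58290), which starts the pathway, differed by -0.15 ± 0.04, -0.15 ± 0.04, -0.19 ± 0.06 and -0.14 ± 0.04. Only GUN5 of the 5 passed DESeq2, and 2 genes of the list were called lower without e2e3 replicate 1 or 2 or without e1e2 replicate 1 or 2 in ethylene. In air 8 of the 9 were lower. The light response list (9 genes) and the clock list (14 genes) gave no call.

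Transcripts of the plastid genome were looked at after their values were seen. Of 78 plastid genes tested, 12 were lower and 1 was higher, together 16.67%, against 6.56% over all genes, and the median log2 difference over the 78 was -0.04; the 12 differed by -0.35 to -0.87, and 9 of them passed DESeq2. The plastid locus ATCG00480 had 98.1 and 106 CPM in e2e3, against 131 and 155 CPM in e1e2 (log2 -0.49 ± 0.05; adjusted p = 1.75e-14). In air it was higher in e2e3, by 0.24 ± 0.05, so its difference from air was -0.73 ± 0.07 (adjusted p = 1.27e-14). The other 11 were not called higher in air, and 6 were called lower there. Plastid transcripts mostly lack poly(A) tails and the libraries were poly(A)-selected, so these counts cover an unknown part of the plastid RNA.

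Seed reserve genes gave calls in both directions, although the only lower call, on SESA3, failed DESeq2. Of 11 tested genes for storage proteins, oleosins and late-embryo proteins, 4 were higher in e2e3 and 1 was lower. Together they are 45.5% of the list, against 6.56% called over all genes. CRA1 (AT5G44120), for a cruciferin, the globulin store, had 1506 and 1586 CPM in e2e3, against 941 and 822 CPM in e1e2 (log2 0.81 ± 0.10; adjusted p = 0.0214). CRU3 (AT4G28520), another cruciferin gene, had 1024 and 1068 CPM in e2e3, against 649 and 583 CPM in e1e2 (log2 0.76 ± 0.11; adjusted p = 0.0333). The late-embryo gene EM1 (AT3G51810) had 55.9 and 53.4 CPM in e2e3, against 43.4 and 40.1 CPM in e1e2, and for all of these the lines did not overlap. Its relative GEA6 (AT2G40170) had 80.3 and 92.6 CPM in e2e3, against 55.8 and 59.4 CPM in e1e2. The albumin gene SESA3 (AT4G27160) was lower, with 27.1 and 24.8 CPM in e2e3, against 34.1 and 36.9 CPM in e1e2. The albumin genes SESA1 and SESA4 differed by -0.40 and -0.36 and did not pass. CRU2, SESA2, OLEO1 and OLEO2 differed by 0.01 to 0.09 and did not pass. The list's calls depended on single libraries: 2 of its genes were called higher without e2e3 replicate 1, e2e3 replicate 2 or e1e2 replicate 2, and CRU3 was lost in 5 of the 8 such fits. The summed level was 2823 and 2958 CPM in e2e3 and 1848 and 1677 CPM in e1e2 in ethylene, while in air the lines lay nearer, at 3555 and 3054 CPM in e2e3 and 2682 and 2895 CPM in e1e2.

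Some enzymes that turn seed oil into sugar were higher as well. Of 9 tested, 4 were higher in e2e3 and none was lower, which is 44.4% called, against 6.56% over all genes. Malate synthase (MLS, AT5G03860), of the glyoxylate cycle, had 759 and 805 CPM in e2e3, against 607 and 585 CPM in e1e2 (log2 0.39 ± 0.03; adjusted p = 3.93e-21). Its partner isocitrate lyase (ICL, AT3G21720) differed by 0.11 ± 0.03, the peroxisomal thiolase PKT3 (AT2G33150) by 0.23 ± 0.03, and PCK1 (AT4G37870), the carboxykinase that opens the path to sugar, by 0.16 ± 0.03. The call on ICL did not hold with library sizes left unscaled, and 2 genes of the list were called without e1e2 replicate 1 in ethylene and 6 without e1e2 replicate 1 in air. The gap in MLS was larger in ethylene than in air (difference 0.26 ± 0.05; adjusted p = 0.000101).

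Of 9 tested cold- and ABA-induced genes, 2 were higher and none lower (22.2% called, against 6.56% over all genes). KIN2 (AT5G15970), a cold-induced protein gene, had in ethylene 183 and 202 CPM in e2e3, against 147 and 150.3 CPM in e1e2. In air it had 166 and 164 CPM in e2e3, against 215 and 222 CPM in e1e2, so the order of the lines differed between the conditions (log2 0.37 ± 0.04 and -0.40 ± 0.04; difference 0.78 ± 0.06, adjusted p = 7.75e-25). RAB18 (AT5G66400), a dehydrin gene, differed by 0.20 ± 0.04 in ethylene and 0.26 ± 0.04 in air. Of 8 heat-shock genes 1 was called (12.5%, against 6.56% over all genes). It was HSP17.6A (AT5G12030), higher with 39.96 and 48.1 CPM in e2e3, against 27.4 and 23.2 CPM in e1e2. Reads that HSP17.6A shares with its near-identical neighbour HSP17.6II were not counted, so its value is uncertain.

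Where wall-loosening genes were called, they were mostly higher in e2e3. XTH enzymes cut and rejoin xyloglucan in the wall, and 10 of their 28 tested genes were higher and none lower. That share, 35.7%, compares with 6.56% called over all genes. XTH4 (AT2G06850) had 673 and 721 CPM in e2e3, against 508 and 518 CPM in e1e2 (log2 0.44 ± 0.03; adjusted p = 5.30e-25), and XTH19 (AT4G30290) had 277 and 276 CPM in e2e3, against 209 and 215 CPM in e1e2. XTH5 (AT5G13870) and XTH25 (AT5G57550) differed by 0.53 ± 0.09 and 0.73 ± 0.20, from lower levels. Expansins loosen the wall without cutting it, and 6 of their 20 tested genes were higher and 1 lower. EXPA8 (AT2G40610) had 107 and 119.5 CPM in e2e3, against 70.8 and 67.8 CPM in e1e2 (log2 0.71 ± 0.05; adjusted p = 7.55e-30), and EXPA11 (AT1G20190) and EXP3 (AT2G37640) differed by 0.26 ± 0.04 and 0.21 ± 0.04. EXPA5 (AT3G29030) had 3.63 and 6.26 CPM in e2e3, against 2.96 and 2.89 CPM in e1e2, so the e2e3 libraries disagreed and the call was lost in 3 of the 8 fits that left out 1 library. EXPA12 (AT3G15370) was the member that was lower, with 24.9 and 25.6 CPM in e2e3, against 31.5 and 31.9 CPM in e1e2; it failed DESeq2 and was lost in 4 of the 8 fits. Without e2e3 replicate 2 in ethylene the counts were 6 XTH genes and 3 expansins higher, and without e1e2 replicate 2 in ethylene 8 and 3. Of the cellulose synthase genes (9 tested) none was called.

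Of 27 tested Aux/IAA genes, which encode repressors that are themselves induced by auxin, 5 were higher and none lower. The list thus had 18.5% called, against 6.56% over all genes. AXR3 (AT1G04250) had 258 and 263 CPM in e2e3, against 228 and 214 CPM in e1e2 (log2 0.24 ± 0.04), and IAA29 (AT4G32280), IAA19 (AT3G15540), IAA16 (AT3G04730) and IAA2 (AT3G23030) differed by 0.44 ± 0.14, 0.26 ± 0.07, 0.17 ± 0.04 and 0.14 ± 0.04. Between 1 and 3 of the 5 were called when e2e3 replicate 2, e1e2 replicate 1 or e1e2 replicate 2 in ethylene was left out. Of 64 tested SAUR genes, which are rapid auxin targets, 4 were higher and 1 lower, together 7.8% and near the 6.56% over all genes: AT3G61900 (0.84 ± 0.25), SAUR9 (AT4G36110, 0.64 ± 0.20), AT5G50760 (0.26 ± 0.07) and AT4G09530 (0.24 ± 0.07), against AT1G43040 (-1.61 ± 0.53). None of these SAUR calls passed DESeq2, which gave no adjusted p for 3 of them, and without e2e3 replicate 2 or e1e2 replicate 2 none was left. EIR1 (AT5G57090, PIN2), the root auxin efflux carrier, was lower, with 56.9 and 57.2 CPM in e2e3, against 71.4 and 64.9 CPM in e1e2 (log2 -0.26 ± 0.06); this was the only call among 5 PIN genes and it failed DESeq2.

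Aquaporins, the water channels of the plasma membrane and tonoplast, were higher at 7 of 25 tested genes and lower at 1. Together these calls are 32.0% of the list, against 6.56% over all genes. TIP2 (AT3G26520), of the tonoplast, had 4844 and 5035 CPM in e2e3, against 4288 and 4234 CPM in e1e2, and PIP2A (AT3G53420), of the plasma membrane, 884 and 959 CPM in e2e3, against 789 and 784 CPM in e1e2. PIP1;5 (AT4G23400) and PIP2E (AT2G39010) differed by 0.21 ± 0.04 and 0.17 ± 0.04. TIP2;3 (AT5G47450), of the root tonoplast, was lower, with a difference of -0.22 ± 0.04. The count of higher genes was 3 without e2e3 replicate 2 or e1e2 replicate 2 in ethylene.

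Markers of root hairs and of the root endodermis moved with these groups. Calls covered 44.4% of the root hair list, 54.5% of the root and endodermis list and 14.3% of the epidermis and vascular list, against 6.56% over all genes. Of 9 root hair markers, 4 were higher in e2e3: the wall protein genes PRP3 (AT3G62680), with 134 and 133 CPM in e2e3, against 98.3 and 96.8 CPM in e1e2 (log2 0.45 ± 0.05), PRP1 (AT1G54970, 0.35 ± 0.06) and LRX1 (AT1G12040, 0.40 ± 0.07), and the expansin gene EXPA7 (AT1G12560, 0.28 ± 0.08). The EXPA7 call failed DESeq2, which called 3 of the root hair list. Its difference ran from 0.17 to 0.40 over the fits that left out 1 library. The genes that set root hair fate and growth, RHD6, RSL4 and RHD2, differed by 0.05 ± 0.20, 0.03 ± 0.15 and 0.00 ± 0.09 and did not pass. Of 11 root and endodermis markers, 6 were higher, among them PYK10 (AT3G09260, 0.17 ± 0.03), a root beta-glucosidase, and the Casparian strip genes CASP1 (AT2G36100, 0.26 ± 0.04), CASP2 (AT3G11550, 0.32 ± 0.05), CASP4 (AT5G06200, 0.35 ± 0.07) and CASP5 (AT5G15290, 0.18 ± 0.05). The stem-cell and patterning genes SCR, SHR, WOX5, PLT1 and PLT2 differed by -0.25 to 0.18 and did not pass. Summed root hair markers were 413 and 401.2 CPM in e2e3 and 333 and 323 CPM in e1e2, and summed root and endodermis markers were 7416 and 7401 CPM in e2e3 and 6556 and 6529 CPM in e1e2. The part of tissue proportions in the wall, auxin, aquaporin and iron results was not tested. Without e1e2 replicate 1 in ethylene, 4 of the endodermis list were higher. Of 7 epidermis and vascular markers, 1 was higher, the epidermal PDF1 (AT2G42840, 0.16 ± 0.04), and it was lost without e1e2 replicate 2.

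**Figure D5:**
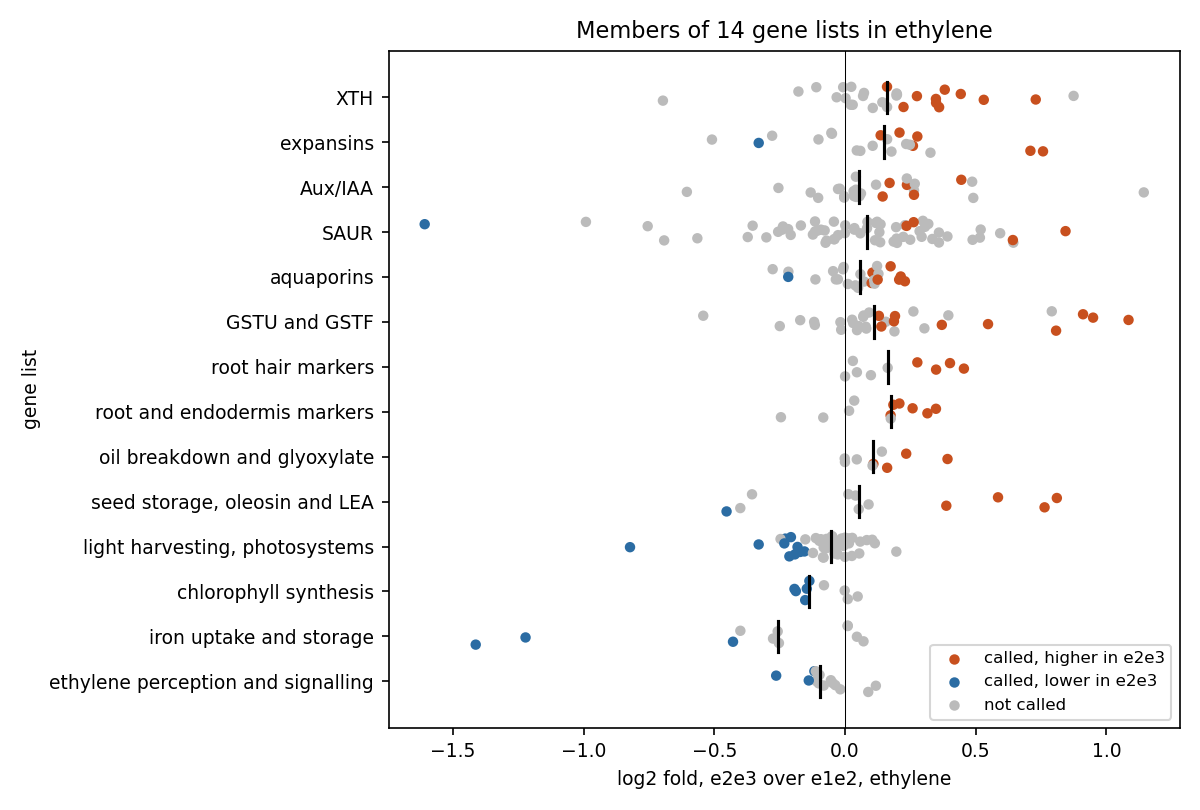
Log2 fold of e2e3 over e1e2 in ethylene for the tested members of 14 gene lists; orange points were called higher, blue points called lower and grey points not called, and the black bar is the list's median. Most points of the wall, glutathione S-transferase, light-harvesting and iron lists are grey; among the called members orange prevails in the wall, glutathione S-transferase and root lists, and only blue appears in the light-harvesting, chlorophyll and iron lists.

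Glutathione S-transferases, which couple glutathione to reactive and foreign compounds, were higher at 10 of 32 tested genes of the tau and phi classes. None was lower, so 31.2% of the list was called, against 6.56% over all genes. GSTU25 (AT1G17180) had 97.8 and 96.3 CPM in e2e3, against 55.3 and 55.6 CPM in e1e2 (log2 0.81 ± 0.06; adjusted p = 2.73e-30), and GSTU9 (AT5G62480) had 84.9 and 91.3 CPM in e2e3, against 56.98 and 63.7 CPM in e1e2. Beside GSTF7 above, GSTF6 (AT1G02930) and GSTF3 (AT2G02930) differed by 0.91 ± 0.13 and 0.95 ± 0.17; GSTF3 also has a near-identical copy, GSTF2. The count was 6 without e2e3 replicate 2 in ethylene, and it was 7 by DESeq2 and with library sizes left unscaled. For GSTU25 and GSTF6 the gap was smaller in ethylene than in air (differences -0.48 ± 0.08 and -0.79 ± 0.19; adjusted p = 1.39e-05 and 0.00594).

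The lists around pyruvate and respiration held 1 or 2 called genes each, to be read against 6.56% called over all genes. Of 7 fermentation and bypass genes, AT4G33070 alone was called (14.3%); ADH1, PDC2 and the other 4 genes of the list differed by -0.04 to 0.09. The gap of AT4G33070 was smaller in ethylene than in air, where it was 1.96 ± 0.09 (difference -0.69 ± 0.12; adjusted p = 5.14e-05). Of 10 hypoxia genes, LBD41 (AT3G02550), a hypoxia marker, was lower, with a difference of -0.30 ± 0.10 (10.0% of the list). Of 9 genes of mitochondrial stress, NAC13 (AT1G32870), a regulator of retrograde signalling, and its target AT2G21640 were higher, by 0.25 ± 0.08 and 0.28 ± 0.09 (22.2% of the list). None of these 3 calls passed DESeq2, and each was lost in 3 or 4 of the 8 fits that left out 1 library. Of 19 genes of the TCA cycle and ATP-citrate lyase 5.3% were called: the aconitase ACO3 (AT2G05710) was higher, with 712 and 709 CPM in e2e3, against 615 and 628 CPM in e1e2 (log2 0.19 ± 0.03; adjusted p = 3.52e-06).

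Of the 3 ethylene lists, that of perception and signalling held calls. Of its 15 genes, 3 were lower in e2e3 (20% of the list, against 2.32% lower over all genes) and none was higher, with a median of -0.10. EBF1 (AT2G25490) had 85.9 and 86.2 CPM in e2e3, against 108 and 98.9 CPM in e1e2 (log2 -0.26 ± 0.05; adjusted p = 6.49e-05), and EBF2 (AT5G25350) had 295 and 277 CPM in e2e3, against 319 and 311 CPM in e1e2 (log2 -0.14 ± 0.04). The receptor gene ERS1 (AT2G40940) differed by -0.12 ± 0.04. EIN2, EIN3 and CTR1 differed by -0.10 ± 0.03, -0.05 ± 0.04 and -0.11 ± 0.04 and did not pass, although both EIN2 and CTR1 were called lower with library sizes left unscaled, in the ethylene libraries alone and without e1e2 replicate 1 or 2 in air, where the list had 5 lower genes. EBF1 alone passed DESeq2; no gene of the list was called without e1e2 replicate 1 in ethylene, and 1 was called without e1e2 replicate 2 or e2e3 replicate 2. For EBF1 the gap in air was -0.01 ± 0.06, and the difference from air was -0.25 ± 0.08 (adjusted p = 0.0419); for EBF2 it was -0.12 ± 0.06 (adjusted p = 0.287). The difference from air in EIN2 was -0.17 ± 0.05 (adjusted p = 0.0437), with 0.07 ± 0.04 in air. By DESeq2 neither difference passed, at an adjusted p of 0.171 for EBF1 and 0.0588 for EIN2. In the edgeR fit these were the 2 negative differences from air called in the perception and signalling list, and 1 positive difference was called too. The biosynthesis list held 1 called difference from air, which was negative. None of 13 ethylene response genes, among them ERF1, HLS1 and ARGOS, and none of 13 ethylene biosynthesis genes was called in the main edgeR fit. DESeq2 called 1 biosynthesis gene higher, as did edgeR on the 4 ethylene libraries alone. With library sizes left unscaled, 1 response gene was called lower. The summed response list was 1323 and 1358 CPM in e2e3 and 1367 and 1387 CPM in e1e2.

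Other lists gave few or no calls. In the camalexin and indole defence list 12.5% were called, against 6.56% over all genes. Of 8 camalexin and indole defence genes, CYP79B3 (AT2G22330), which makes indole-3-acetaldoxime from tryptophan, was higher by 0.26 ± 0.07, and it was lost in 3 of the 8 fits that left out 1 library. None of 6 tested salicylate and defence genes, 8 jasmonate genes, 14 phenylpropanoid and flavonoid genes, 15 genes for histone acetyltransferases and deacetylases and 6 touch genes was called. The histone list matters to the question of the series, and its log2 differences ran from -0.24 to 0.21.

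Among the genes called in ethylene, those whose line gap departed most clearly from that in air fell into several kinds. In 7 of the 10 with the more positive gap in ethylene, e2e3 was lower in both conditions but less so in ethylene. AT2G05510, a glycine-rich protein gene, had in ethylene 102 and 106 CPM in e2e3, against 139 and 143 CPM in e1e2, and in air 25.5 and 27.6 CPM in e2e3, against 60.4 and 60.9 CPM in e1e2 (difference 0.75 ± 0.09; adjusted p = 9.61e-13). The peroxidase gene AT1G49570 had in ethylene 185 and 188 CPM in e2e3, against 219.6 and 213 CPM in e1e2, and in air 23.6 and 21.1 CPM in e2e3, against 46.7 and 39.1 CPM in e1e2, so its level was far higher in ethylene in both lines. BT2 (AT3G48360), a scaffold protein gene, differed between the lines by -0.35 ± 0.04 in ethylene and -0.76 ± 0.05 in air. DOT1 (AT2G36120), AT4G36850 and AT5G18600 showed the same order, with differences from air of 0.44 ± 0.06, 0.56 ± 0.08 and 1.13 ± 0.19; their ethylene calls failed DESeq2, and leaving out 1 library at a time lost them in 3, 4 and 3 of 8 fits. AT5G35660, another glycine-rich protein gene, was higher in e2e3 in both conditions and more so in ethylene, by 0.83 ± 0.05 against 0.35 ± 0.05. GATA4 (AT3G60530), a GATA factor gene, was higher in e2e3 in ethylene (0.21 ± 0.04) and lower in air (-0.14 ± 0.04), as was KIN2.

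Among the 10 with the more negative gap, 5 nuclear genes were lower in e2e3 in ethylene and higher in e2e3 in air. LEA7 (AT1G52690), a late-embryo protein gene, had in ethylene 300.0 and 315 CPM in e2e3, against 345 and 358 CPM in e1e2, and in air 307 and 289.6 CPM in e2e3, against 255 and 249.7 CPM in e1e2 (difference -0.43 ± 0.05; adjusted p = 1.34e-10). MRN1 (AT5G42600), the marneral synthase, had in ethylene 30.1 and 34.03 CPM in e2e3, against 38.7 and 44.6 CPM in e1e2, and in air 185 and 180.1 CPM in e2e3, against 172 and 163 CPM in e1e2. AT4G01870, a tolB-like protein gene, the glyoxal oxidase-related AT1G19900 and the chitinase gene AT2G43590 did the same, with differences from air of -0.61 ± 0.07, -0.57 ± 0.08 and -0.38 ± 0.06. The ethylene calls on AT4G01870 and AT1G19900 failed DESeq2 and were each lost in 3 of the 8 fits that left out 1 library. PXMT1 was higher in e2e3 in both conditions but less so in ethylene; in air it had 94.4 and 86.9 CPM in e2e3, against 24.9 and 24.2 CPM in e1e2 (difference -0.79 ± 0.11; adjusted p = 6.38e-09). CER1 (AT1G02205), which makes alkanes of the cuticular wax, was higher by 0.11 ± 0.04 in ethylene and 0.47 ± 0.04 in air; its ethylene call did not hold with library sizes left unscaled or in DESeq2. ATCG00480, GSTU25 and AT4G33070, described above, complete this set.

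Genes next to the loci of the largest PDC differences were called at about the share over all genes, which was 6.56%. Within 50 kb of E1 ALPHA 16 other genes were tested and 1 was called, the transporter gene PEN3 (AT1G59870), with 408 and 393 CPM in e2e3, against 338 and 344 CPM in e1e2 (log2 0.23 ± 0.04). Within 50 kb of mtLPD2 17 were tested and 1 was called, AT3G17340, with 27.5 and 26.9 CPM in e2e3, against 34.5 and 33.2 CPM in e1e2 (log2 -0.32 ± 0.08); it failed DESeq2 and was lost in 2 of the 8 fits that left out 1 library.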

How the data were processed

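RNA was taken from whole 3-day-old dark-grown seedlings, poly(A)-selected and sequenced, 2 libraries for each line in ethylene and in air, per the labels' protocols. The authors deposited raw read-pair counts per gene; per the file headers they were made with featureCounts 2.0.1 on Araport11 genes and transposons, paired-end, with no strand setting and without counting reads of several places, so overlapping, antisense and near-identical genes are uncertain (26 of 141 genes followed in detail share exon bases with another gene). The submitters' processing notes also name Trim Galore, STAR, DESeq2 and the genome TAIR10, without their roles.

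Both tables were joined by gene. After edgeR's filterByExpr by group, 20193 genes were fitted over all 8 libraries with TMM scaling and the robust quasi-likelihood test (edgeR 4.0.16 in R 4.3.3), with contrasts for ethylene, air and their difference; each SE is the log2 fold divided by the square root of F. Every adjusted p is Benjamini-Hochberg over all genes tested, called below 0.05. Residual degrees of freedom were 4, and the spread shared over genes had a median of 218 prior degrees of freedom. Most p-values thus rest mainly on a spread pooled over genes, not on each gene's own replicates. The common biological coefficient of variation was 2.75%. DESeq2 1.42.0 was an alternative.

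Named genes were the 15 largest called differences in each direction with no overlap between lines and a mean of at least 5 CPM in the higher line, all mitochondrial PDC subunits, the largest called members of each of 36 lists with members whose role a sentence needed, the 10 called genes in each direction with the smallest adjusted p for the difference from air, and called genes within 50 kb of E1 ALPHA and mtLPD2. Members and lists were chosen with earlier results of these data known. Names come from RefSeq, which lists 36632 of the 36799 loci. The script was tested on simulated counts whose spread was wider than the common value given above. It called 5 of 50 genes changed 1.25-fold, 34 of 50 changed 1.5-fold and 48 of 50 changed 2-fold. Of the unchanged genes it called 6. Because the simulated spread was wider, these counts do not give the recovery in the real libraries.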

Additional observations from a re-analysis of the deposited data

Results flagged for a closer look

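For 45 genes with values in the report, the gap between e2e3 and e1e2 in ethylene differed from that in air. The test was edgeR's test of the difference itself, at an adjusted p under 0.05 over all genes. Of all genes tested, 2.8% passed it. Some of the 45 were named by the rule that picked the smallest adjusted p in this same test, so they had to pass. The 45 therefore cannot be set against the 2.8% as an enrichment. By DESeq2 the difference passed for 27 of the 45; 13 had no adjusted p there, and EBF1 (0.171), EM1 (0.0906), EIN2 (0.0588), mtLPD2 (0.0546) and CYP79B3 (0.0529) did not pass. Each value below is the log2 gap in ethylene minus the log2 gap in air. Genes are grouped by the sign of the fitted gaps, whether or not these were called. The air gaps of EM1, AT4G09530, CYP79B3, EIN2, EBF1 and AT3G17340 were not called, nor was the ethylene gap of EIN2. The sign of those gaps is therefore not established.

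Genes with a fitted gap below 0 in both conditions, and closer to 0 in ethylene, were AT1G64795 by 1.62, EXPA12 (AT3G15370) by 1.22, AT5G18600 by 1.13, AT2G05510 by 0.75, AT1G49570 by 0.73, FRO2 (AT1G01580) by 0.72, IRT1 (AT4G19690) by 0.60, AT4G36850 by 0.56, DOT1 (AT2G36120) by 0.44, BT2 (AT3G48360) by 0.40, LHB1B1 (AT2G34430) by 0.36, CAB2 (AT1G29920) by 0.36, mtLPD2 (AT3G17240) by 0.32, CAB1 (AT1G29930) by 0.30, CAB3 (AT1G29910) by 0.26, LHCA4 (AT3G47470) by 0.26, LHCA1 (AT3G54890) by 0.25, LHCB6 (AT1G15820) by 0.23, LHCB3 (AT5G54270) by 0.21, GUN5 (AT5G13630) by 0.19 and LHCB5 (AT4G10340) by 0.17. Genes with a fitted gap above 0 in both conditions, and farther from 0 in ethylene, were MLP31 (AT1G70840) by 0.79, AT1G14950 by 0.49, AT5G35660 by 0.48, EM1 (AT3G51810) by 0.31 and MLS (AT5G03860) by 0.26. Genes with a fitted gap above 0 in ethylene and below 0 in air were KIN2 (AT5G15970) by 0.78, AT4G09530 by 0.41, GATA4 (AT3G60530) by 0.35, CYP79B3 (AT2G22330) by 0.30 and PIP2E (AT2G39010) by 0.27.

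Genes with a fitted gap above 0 in both conditions, and closer to 0 in ethylene, were CER1 (AT1G02205) by -0.36, GSTU25 (AT1G17180) by -0.48, AT4G33070 by -0.69, GSTF6 (AT1G02930) by -0.79 and PXMT1 (AT1G66700) by -0.79. Genes with a fitted gap below 0 in ethylene and above 0 in air were EIN2 (AT5G03280) by -0.17, AT2G43590 by -0.38, AT3G17340 by -0.43, LEA7 (AT1G52690) by -0.43, MRN1 (AT5G42600) by -0.51, AT1G19900 by -0.57, AT4G01870 by -0.61 and ATCG00480 by -0.73. The gap in EBF1 (AT2G25490) was below 0 in both conditions and farther from 0 in ethylene, by -0.25. The values of AT1G64795, GSTF6 and the LHCB1 genes CAB1, CAB2, CAB3 and LHB1B1 are uncertain, since reads can be shared with an overlapping or near-identical gene.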

How the results depend on the processing

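The ethylene comparison called 1354 genes with RLE size factors, 1404 with library size alone, 1296 with no filter on low counts, 1348 with a CPM of at least 1 in 2 libraries and 1526 when the 4 ethylene libraries were fitted alone. Left unscaled, the ethylene calls held 606 higher and 798 lower genes, so 43.2% were higher in place of 64.7%, and the air calls held 1185 higher and 1756 lower genes. DESeq2 called 580 genes in ethylene (445 higher, 135 lower), 1507 in air (952 higher, 555 lower) and 226 for the difference (144 and 82), and gave no adjusted p for 7047 genes in ethylene. Leaving out 1 library at a time, which assumes the lone library of a group varies like the others, gave 638 to 1586 calls in ethylene, with 428 to 1063 higher and 202 to 562 lower. It gave 1952 to 2936 in air and 240 to 545 for the difference; the air count was lowest without e2e3 replicate 2 in air, and the count of differences was 240 and 263 without e1e2 replicate 2 and 1, 242 without e2e3 replicate 2 in ethylene and 367 without e2e3 replicate 1 in air.

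With the replicate number as a block, 1155 genes were called in ethylene, 2784 in air and 469 for the difference. Deviations of same-numbered libraries correlated by -0.03 to 0.001, so the counts show no shared shift by number. Whether same-numbered libraries were grown or handled together is not given, and these correlations cannot show it. Of the 141 genes followed in detail, 123 were called, and none of these changed direction under any setting run; 4 lost the call with RLE, 8 with library size alone, 8 without the filter, 7 with the block, 1 with the CPM minimum and 1 in ethylene alone; 25 did not pass DESeq2 and 19 had no adjusted p there. Leaving out 1 ethylene library lost 21 to 37 of these calls and leaving out 1 air library 1 to 5; the cause was not tested. With 2 libraries a group, the smallest called difference in ethylene was 0.10 on the log2 scale, and an uncalled gene is not shown to be equal.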

Other observations

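Calls were spread over the chromosomes, with 1 stretch chosen here after the values were seen. Between 2 and 3 Mb on chromosome 2, 48 genes were tested, 5 were higher in e2e3 and 6 lower, so 22.92% were called, against 6.56% over all genes. AT2G05950 (-3.07 ± 0.62), AT2G00430 (-2.19 ± 0.47) and AT2G05995 (-2.15 ± 0.49) in that stretch were all lower on the log2 scale in ethylene. AT2G05950 had 0.279 and 0.070 CPM in e2e3, against 1.14 and 1.92 CPM in e1e2, so its libraries did not overlap but its level was low.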
